A study of Mus musculus with 9 samples.

Results

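The genes described here encode the inhibitors and subunits of the transcription factor NF-kB and the deubiquitinase A20 with its binding partner ABIN-1. Members were chosen by name, with earlier results of these data known: Nfkbia, Nfkbib, Nfkbie, Nfkbiz, Bcl3, Tnfaip3, Tnip1, Nfkb1, Nfkb2 and Relb. Of these 10 genes, 9 had a probe set with 1 gene symbol, and they stood among 22180 genes measured in this way. Nfkb1, which encodes a precursor of an NF-kB subunit, had no such probe set and was not analysed here. Each of the other 9 had exactly 1 probe set, so that no choice between probe sets entered its values. None of the 9 was among the lowest 30% of genes by mean over the arrays, the lowest being Nfkbie at percentile 56.3.

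Total RNA was measured on 9 one-colour Affymetrix arrays, 3 in each of 3 groups, of the hMLKL1-181-2Fv-NIH3T3 mouse fibroblast line. This line carries the start of human MLKL, the pseudokinase that breaches the plasma membrane in necroptosis, fused to Fv domains that the compound B/B pulls together. In the washout group, cells had been given 50 nM B/B for 1 h, sorted as annexin V-positive, and then taken through a washout of 6 h, for which 3000 nM is listed in the design with no compound named. The B/B 1 h group had the same 50 nM B/B for 1 h and the same sort, with no washout, and the control group is labelled only as control treatment. Whether control cells were sorted, and when they were harvested, is not given in the labels, so the effects of B/B, of sorting and of harvest time cannot be told apart against control. Washout and B/B 1 h arrays differ in the washout, in the listed 3000 nM and in 6 h of time, which cannot be told apart either. Whether the fusion line is 1 clone, and whether arrays of a group came from separate cultures, is not given either. The p-values set differences against the spread between these arrays, which may be technical. Annexin V binds phosphatidylserine on the outer face of the membrane. RNA was taken from bulk cell populations, in which fewer cells expressing a gene and less RNA per cell cannot be told apart.

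NF-kB is a family of dimers of REL-domain proteins. In resting cells the classical IkB proteins, the products of Nfkbia, Nfkbib and Nfkbie, keep these dimers out of the nucleus. Signals from cytokine and Toll-like receptors activate the IKK kinase complex, which marks IkB for ubiquitination and degradation, and the freed dimers turn on target genes. Nfkbia and Tnfaip3 are themselves targets, and their products close the pathway down again, in fibroblasts as in other cells. The alternative branch of the pathway runs through the Nfkb2 product and RelB and is slower.

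Values are log2 levels, the base being read from their range. Replicate numbers here only name the arrays of a group in deposit order and pair none of them. Array medians lay between 4.6 and 4.68. Arrays correlated, across genes, which are not independent replicates, at 0.9977 to 0.9985 within groups and at 0.9901 to 0.9976 between groups. B/B 1 h replicate 1 had the lowest array weight in limma, 0.563, against 0.923 to 1.293 on the other 8 arrays. The fibroblast label was checked on 14 marker genes, of which Lum and Postn were among the lowest 30% of all genes, a range with no detection call. Their summed log2 level was 123.9 to 124.3 in washout arrays, 128.8 to 129.5 in B/B 1 h arrays and 128.9 to 129.1 in control arrays. After washout, 2 of these markers were higher and 8 lower than in control, where 26.2% of all genes passed (limma adjusted p under 0.05). The largest falls were of Pdgfrb, Col1a2 and Col1a1, 2.56-fold, 1.98-fold and 1.73-fold. The 2 higher markers, named after their values were seen, were Pdgfra, 1.61-fold, and Dcn, 1.17-fold. Of 12 leukocyte markers, Ptprc, Adgre1, Lyz2, Itgam, Cd3e and Cd52 were in the lowest 30%.

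The promoter sequences are shown because Nfkbia and Tnfaip3, which rose at 1 h, and Tnip1, Nfkb2 and Nfkbie, which did not pass the test at 1 h, all hold the motif that NF-kB dimers bind. Sequences of the 250 bases before the start site were taken from RefSeq on build GRCm38.p6, and 7 of the 10 member genes had an entry. Nfkbiz, Nfkb1 and Relb are named only. The 10-base kB consensus was searched on both strands, and a match is a description of the letters, not evidence of binding. Bases of a match are in capitals, and a match on the opposite strand appears as its reverse complement. Each sequence is written 5′ to 3′ on the strand of its gene and ends at position -1, the base before the start.
Nfkbia: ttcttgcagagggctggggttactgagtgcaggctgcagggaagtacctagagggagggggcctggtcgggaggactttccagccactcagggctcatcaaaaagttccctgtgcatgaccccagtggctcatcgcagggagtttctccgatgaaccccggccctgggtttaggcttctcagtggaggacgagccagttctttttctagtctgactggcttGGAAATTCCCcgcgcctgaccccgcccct
Tnfaip3: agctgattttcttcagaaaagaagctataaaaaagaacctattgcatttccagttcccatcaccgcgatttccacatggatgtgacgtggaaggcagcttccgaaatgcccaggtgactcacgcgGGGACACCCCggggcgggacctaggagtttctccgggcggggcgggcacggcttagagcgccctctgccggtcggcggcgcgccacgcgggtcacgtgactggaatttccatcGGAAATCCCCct
Tnip1: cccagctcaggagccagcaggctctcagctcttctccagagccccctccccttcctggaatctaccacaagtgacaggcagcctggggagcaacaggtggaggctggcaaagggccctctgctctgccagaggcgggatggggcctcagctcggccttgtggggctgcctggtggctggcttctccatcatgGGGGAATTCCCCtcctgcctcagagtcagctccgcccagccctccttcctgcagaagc
Nfkb2: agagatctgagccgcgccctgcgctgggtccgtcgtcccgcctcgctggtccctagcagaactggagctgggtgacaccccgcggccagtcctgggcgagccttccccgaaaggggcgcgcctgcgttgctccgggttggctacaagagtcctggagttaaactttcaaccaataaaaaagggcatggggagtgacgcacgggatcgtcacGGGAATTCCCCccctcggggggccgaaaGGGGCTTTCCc
Nfkbie: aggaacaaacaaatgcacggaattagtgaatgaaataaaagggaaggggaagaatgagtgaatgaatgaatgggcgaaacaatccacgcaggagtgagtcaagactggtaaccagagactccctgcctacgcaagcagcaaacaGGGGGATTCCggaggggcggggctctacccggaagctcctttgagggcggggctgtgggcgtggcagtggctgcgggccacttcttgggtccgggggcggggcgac
The Nfkbia sequence is chr12:55492648-55492897 on the minus strand, and that of Tnfaip3, the more upstream of its 2 starts in the table, is chr10:19015411-19015660 on the minus strand. The Tnip1 sequence is chr11:54962941-54963190 on the minus strand. Nfkb2 is shown for the most upstream of its 3 starts, chr19:46304487-46304736 on the plus strand, and Nfkbie at chr17:45555450-45555699 on the plus strand. Matches lay at -29 to -20 in Nfkbia, at -125 to -116 and -12 to -3 in Tnfaip3, and at -106 to -97 in Nfkbie. In Tnip1, 3 overlapping matches spanned -58 to -47, and in Nfkb2 a pair of overlapping matches spanned -39 to -29 beside another at -11 to -2. All 3 starts of Nfkb2 held a match, the second start of Tnfaip3 held none, and Nfkbib and Bcl3 held none in this window. Thus 5 of 7 member genes held the kB consensus in at least 1 of their windows, where 4.85% of 16918 measured genes with an entry did, and 7 of 10 member windows held it, where 3.90% of 32851 windows in the table did. Of those 7 windows, 3 belong to Nfkb2. Members were chosen by name and include known NF-kB targets, so these shares are descriptions and test nothing. The AP-1 motif TGANTCA lay in 1 window each of Tnfaip3, at -136 to -130, Nfkbie, at -156 to -150, and Nfkb2, and in 6.75% of all windows, and it overlapped no kB match.

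**Figure D1:**
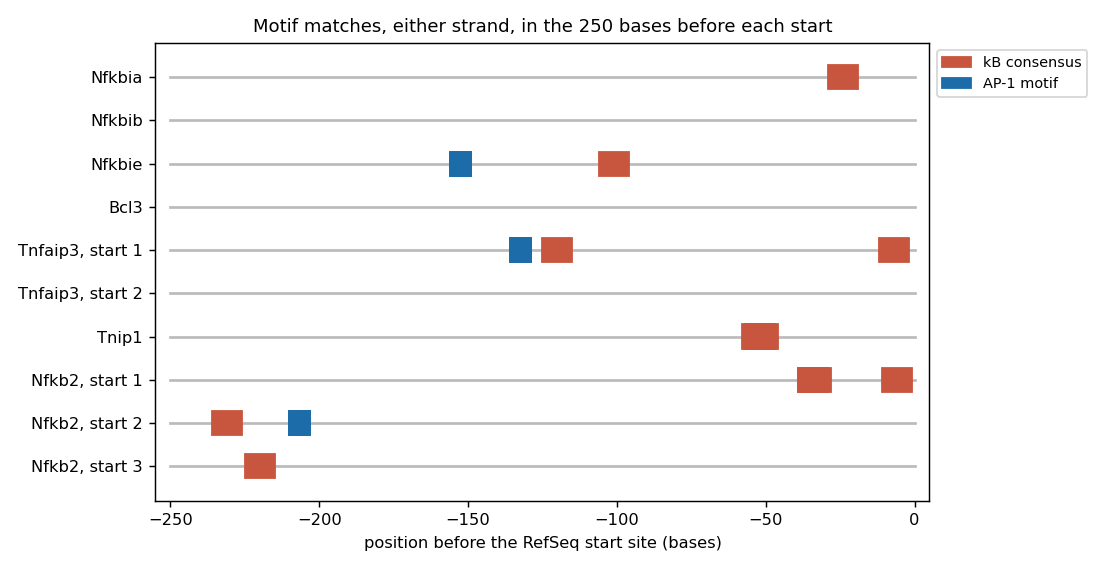
Matches to the kB consensus (red) and to the AP-1 motif TGANTCA (blue) on either strand, by position in bases before the RefSeq start site, for the 10 windows of 7 member genes. Nfkbib, Bcl3 and the second start of Tnfaip3 hold no match, and the match of Nfkbia lies at -29 to -20.

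After 1 h of B/B, 3 of the 9 measured genes rose and none fell: Tnfaip3 4.28-fold, Nfkbiz 2.47-fold and Nfkbia 2.04-fold. After 6 h of washout these 3 genes stood below control, Nfkbia 2.10-fold, Nfkbiz 1.37-fold and Tnfaip3 1.21-fold, while Nfkb2, Nfkbie and Nfkbib stood above it, by 1.23-fold to 1.46-fold. Bcl3 did not pass the test in any comparison, Tnip1 and Relb passed it only between washout and B/B 1 h, and these are statements about the threshold, not tests of a difference between genes. All comparisons are limma fits over the 9 arrays with Benjamini-Hochberg adjustment over 22180 genes, and an adjusted p under 0.05 counts as passing.

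**Figure D2:**
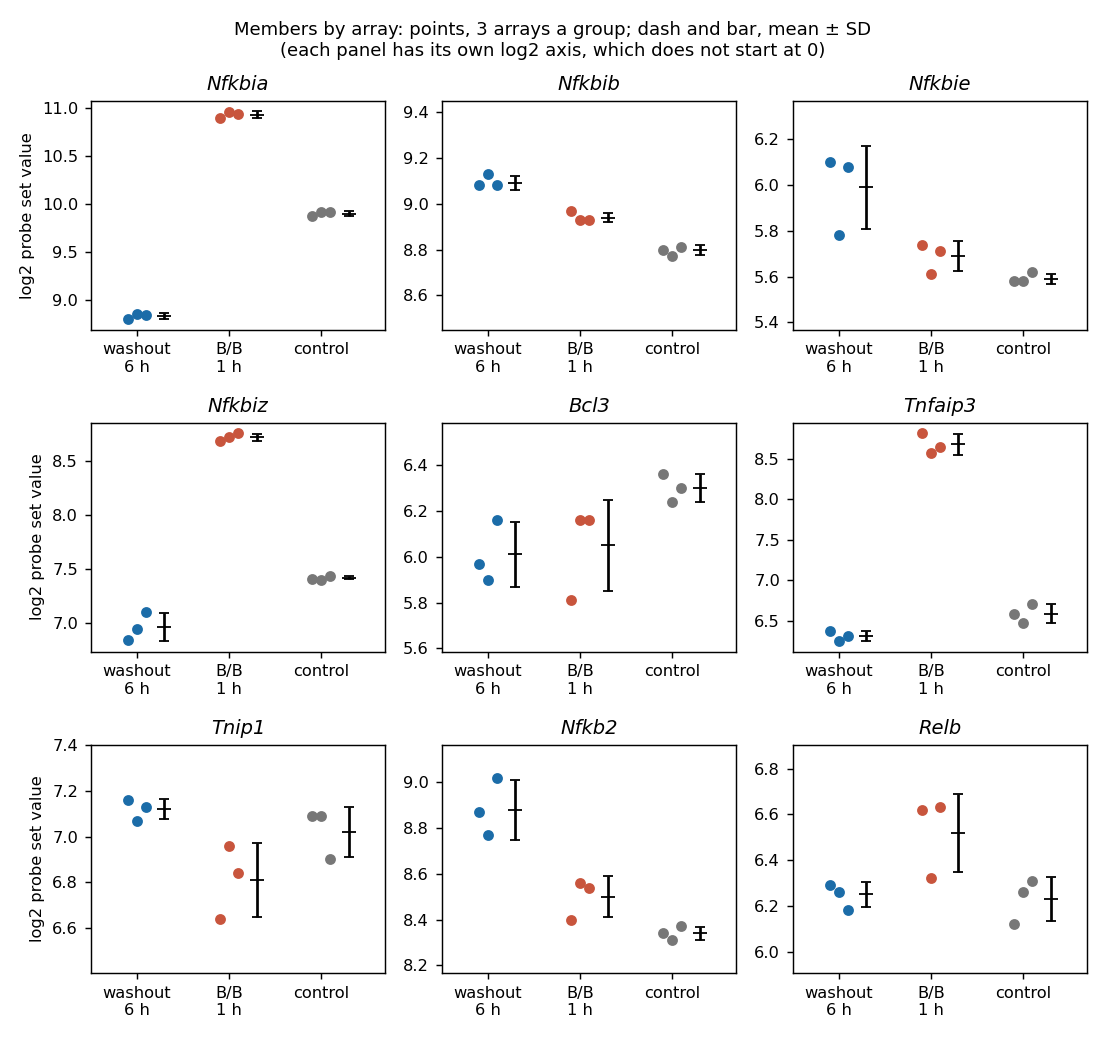
Log2 probe set values of the 9 measured members on each array (points, 3 per group), with the mean ± SD (dash and bar), in washout, B/B 1 h and control arrays, each panel on its own log2 axis. Nfkbia, Nfkbiz and Tnfaip3 are highest on the 3 B/B 1 h arrays and lowest on the 3 washout arrays. Nfkb2, Nfkbib, Nfkbie and Tnip1 have their highest means after washout.

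Among the classical inhibitors, Nfkbia encodes IkB-alpha, the member whose resynthesis ends an NF-kB response. Nfkbia read 8.80, 8.85 and 8.84 (log2) on the washout arrays, 10.89, 10.96 and 10.94 on the B/B 1 h arrays and 9.87, 9.92 and 9.92 on the control arrays. Every B/B 1 h array was above every control array and every washout array was below every control array, with a gap many times the spread within a group. The log2 difference was 1.03 ± 0.041 (SE) for B/B 1 h against control (adjusted p 2.07e-06) and -1.07 ± 0.041 for washout against control (adjusted p 2.08e-07). Between washout and B/B 1 h it was -2.10 ± 0.041 (adjusted p 1.94e-09), 4.29-fold lower, which was rank 16 from the lowest of 22180 genes.

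Nfkbib and Nfkbie encode IkB-beta and IkB-epsilon, the other classical inhibitors. Nfkbib read 9.08, 9.13 and 9.08 on the washout arrays, 8.97, 8.93 and 8.93 on the B/B 1 h arrays and 8.80, 8.77 and 8.81 on the control arrays (log2). The 3 groups did not overlap, although the steps between them were small. Nfkbib was 0.30 ± 0.039 (log2, SE) higher after washout than in control (adjusted p 0.000316) and 0.15 ± 0.039 higher than at 1 h (adjusted p 0.0153), a call against B/B 1 h that was lost without washout replicate 2 (adjusted p 0.0564; 0.00266 to 0.0564 over its alternatives). Its difference of 0.15 at 1 h against control, with a 95% interval of 0.06 to 0.23, did not pass (adjusted p 0.0835). It did pass with the lowest 30% of genes left out (0.048), with a mean-variance trend (0.0277) or without moderation (0.0279), in a range of 0.0277 to 0.192.

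Nfkbie read 6.10, 5.78 and 6.08 on the washout arrays, 5.74, 5.61 and 5.71 on the B/B 1 h arrays and 5.58, 5.58 and 5.62 on the control arrays (log2). Washout replicate 2 lay close to the B/B 1 h arrays, while the other washout arrays lay clear of both groups. The log2 difference was 0.39 ± 0.080 (SE) for washout against control (adjusted p 0.00449) and 0.30 ± 0.080 against B/B 1 h (adjusted p 0.0178). The call against B/B 1 h was lost without B/B 1 h replicate 2 (adjusted p 0.0673), washout replicate 1 (0.0676) or washout replicate 3 (0.0704) and without moderation (0.057), over a range of 0.000666 to 0.0704. At 1 h against control the difference was 0.09 with a 95% interval of -0.09 to 0.27 (adjusted p 0.574). After washout the 95% intervals against control were 0.21 to 0.39 for Nfkbib and 0.21 to 0.57 for Nfkbie, both above 0, and -1.16 to -0.98 for Nfkbia, below 0.

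Nfkbiz and Bcl3 encode the nuclear IkB-like proteins IkB-zeta and BCL-3, which bind NF-kB dimers on DNA and modulate transcription rather than retaining the dimers outside the nucleus. Nfkbiz read 6.84, 6.94 and 7.10 on the washout arrays, 8.69, 8.72 and 8.76 on the B/B 1 h arrays and 7.41, 7.40 and 7.43 on the control arrays (log2). Its groups did not overlap, with B/B 1 h highest and washout lowest, as for Nfkbia. The log2 difference was 1.31 ± 0.061 (SE) at 1 h (adjusted p 4.45e-06) and -0.45 ± 0.061 after washout (adjusted p 0.000397), both against control. Against B/B 1 h, washout was 3.39-fold lower (adjusted p 7.81e-08).

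Bcl3 read 5.97, 5.90 and 6.16 on the washout arrays, 5.81, 6.16 and 6.16 on the B/B 1 h arrays and 6.36, 6.24 and 6.30 on the control arrays (log2). All 6 treated arrays were below the lowest control array, and the washout and B/B 1 h arrays overlapped. The differences against control, -0.29 (95% interval -0.52 to -0.06) after washout and -0.25 (95% interval -0.48 to -0.02) at 1 h, did not pass (adjusted p 0.069 and 0.227). After washout the difference passed in 5 of 17 alternatives, at -0.29 (adjusted p 0.0156) without B/B 1 h replicate 1 and at -0.365 (0.0389) without washout replicate 3, in a range of 0.0156 to 0.217.

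Tnfaip3 encodes A20, a ubiquitin-editing enzyme that acts on signalling proteins upstream of IKK. Tnfaip3 read 6.37, 6.25 and 6.31 on the washout arrays, 8.82, 8.57 and 8.65 on the B/B 1 h arrays and 6.58, 6.47 and 6.71 on the control arrays (log2). The B/B 1 h arrays stood far above both other groups, and the washout arrays stood a little below the control arrays without overlap. Its log2 difference at 1 h, 2.10 ± 0.079 (SE, adjusted p 1.39e-06), was rank 5 from the highest of 22180 genes. Washout was 5.18-fold lower than B/B 1 h (log2 difference -2.37 ± 0.079, adjusted p 6.12e-08), which was rank 12 from the lowest. The difference after washout against control, -0.28 ± 0.079 (adjusted p 0.0269), was the least stable of its 3 calls. It was lost without control replicate 1 (0.0655) or 3 (0.0983), without washout replicate 2 (0.0942) or 3 (0.0707) and without moderation (0.0752), within 0.0144 to 0.0983.

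Tnip1 encodes ABIN-1, a ubiquitin-binding partner of A20. Tnip1 read 7.16, 7.07 and 7.13 on the washout arrays, 6.64, 6.96 and 6.84 on the B/B 1 h arrays and 7.09, 7.09 and 6.90 on the control arrays (log2). B/B 1 h replicate 1 was the lowest array, and B/B 1 h and control arrays overlapped. Against control, the difference was 0.10 (95% interval -0.09 to 0.28, adjusted p 0.488) after washout and -0.21 (95% interval -0.40 to -0.02, adjusted p 0.217) at 1 h. Washout was higher than B/B 1 h by 0.31 ± 0.083 (log2, SE, adjusted p 0.0194). That call was lost without B/B 1 h replicate 1 (0.22, adjusted p 0.0519), washout replicate 1 (0.0628) or washout replicate 3 (0.0583), with quantile normalization (0.0592) and without moderation (0.0621), within 0.00849 to 0.0628.

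Nfkb2 encodes the precursor that is processed to an NF-kB subunit in the alternative branch, and that also binds dimers as an inhibitor before processing. Nfkb2 read 8.87, 8.77 and 9.02 on the washout arrays, 8.40, 8.56 and 8.54 on the B/B 1 h arrays and 8.34, 8.31 and 8.37 on the control arrays (log2). The washout arrays were above all others, and the B/B 1 h arrays were above the control arrays by a margin smaller than their own spread. The log2 difference was 0.54 ± 0.069 (SE) for washout against control (adjusted p 0.000257) and 0.39 ± 0.069 for washout against B/B 1 h (adjusted p 0.00194). At 1 h against control it was 0.16, with a 95% interval that begins at 0.00 when rounded and ends at 0.31 (adjusted p 0.258).

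Relb encodes RelB, the dimer partner of the processed Nfkb2 product. Relb read 6.29, 6.26 and 6.18 on the washout arrays, 6.62, 6.32 and 6.63 on the B/B 1 h arrays and 6.12, 6.26 and 6.31 on the control arrays (log2). Replicates 1 and 3 at 1 h were high, while replicate 2 at 1 h lay just above the control range. Against control the difference was 0.02 (95% interval -0.18 to 0.21, adjusted p 0.937) after washout and 0.29 (95% interval 0.10 to 0.48, adjusted p 0.112) at 1 h, and it passed at 1 h only without B/B 1 h replicate 2 (0.39, adjusted p 0.0264) in a range of 0.0264 to 0.286. Washout was lower than B/B 1 h by 0.28 (adjusted p 0.0374), but that call was lost in 10 of 17 alternatives, over a range of 0.00307 to 0.125. Arrays whose removal ended it were control replicate 2 (0.054), B/B 1 h replicates 1 (0.125) and 3 (0.119) and washout replicates 1 (0.0629), 2 (0.0806) and 3 (0.12).

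**Figure D3:**
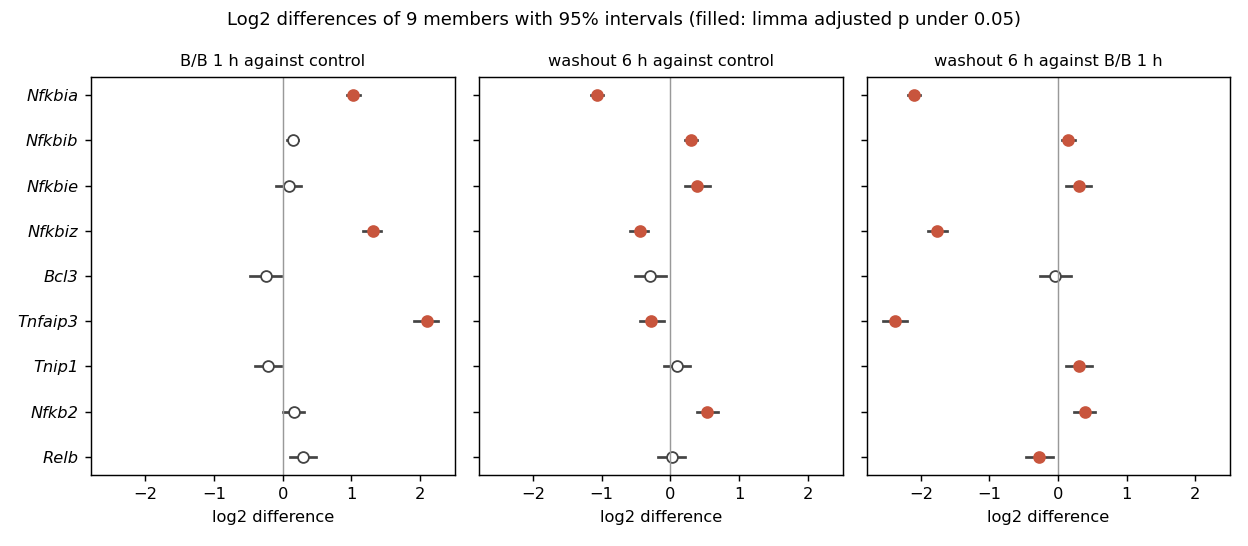
Log2 differences of the 9 measured members (points) with 95% intervals (lines) in the 3 comparisons, filled where limma's adjusted p is under 0.05. At 1 h the filled points are Tnfaip3, Nfkbiz and Nfkbia at 2.10, 1.31 and 1.03, and in the comparison of washout with B/B 1 h the same genes lie at -2.37, -1.76 and -2.10.

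Counted together, 3 of 9 members were higher and 0 lower at 1 h against control by limma, where 2.89% of all genes passed, 1.01% as higher and 1.88% as lower. Because members were chosen with earlier results of these data known, the shares over all genes describe the background and test nothing. At unadjusted p under 0.05, 6 were higher and 2 lower, where 18.5% of all genes passed that threshold, 8.16% as higher and 10.3% as lower. After washout against control, 3 were higher and 3 lower, where 26.2% of all genes passed, 14.5% as higher and 11.7% as lower. Between washout and B/B 1 h, 4 were higher and 4 lower, where 28.6% of all genes passed, 16.6% as higher and 12.0% as lower. The last count of 8 was 5 without washout replicate 1 or washout replicate 3. The arrays of the 2 groups did not overlap in 7, 7 and 8 of the 9 genes in these comparisons, where that held for 21.3%, 38.0% and 39.6% of all genes. The median member difference was 0.16, 0.02 and -0.04 (log2), beside 0.004, 0.001 and -0.02 over all genes, so that a median describes neither the rising nor the falling members. The first and second comparisons share the control arrays, and each pair of comparisons shares a group. At 1 h the split of all called genes was 224 higher and 418 lower as deposited, and 276 higher and 299 lower with quantile normalization. With array medians centred it was 195 higher and 464 lower, and with a variance trend 368 higher and 860 lower.

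Leukocyte markers were read beside the rise at 1 h, where 4 of 12 were higher than control and 0 lower (5 and 1 at unadjusted p under 0.05, limma): Cd79a by 0.70, Cd14 by 0.61, Cd68 by 0.51 and, named after its value was seen, Adgre1 by 0.30 (log2), whose call was lost in most alternatives (adjusted p up to 0.13). Of all genes, 2.89% passed at 1 h, 1.01% as higher and 1.88% as lower, and 18.5% had an unadjusted p under 0.05. The summed log2 level of the 12 markers was 59.0 to 59.1 in washout arrays, 59.4 to 60.2 in B/B 1 h arrays and 57.3 to 57.8 in control arrays. After washout against control, 1 marker was higher and 2 lower, a share near the 26.2% of all genes that passed. Cd14 was higher by 1.47, about the size of the shift in the sum, and Lyz2 stood at -0.30 and Ptprc at -0.19. The pan-leukocyte gene Ptprc was in the lowest 30% of genes, with a mean of 3.20 in washout arrays, 3.35 in B/B 1 h arrays and 3.39 in control arrays, and at 1 h its difference from control was -0.05 (limma adjusted p 0.685). Epithelial and endothelial markers had 0 of 8 and 0 of 8 called at 1 h (at unadjusted p under 0.05, 0 epithelial, and 2 endothelial higher and 1 lower, limma). The part of these markers in the rise of the 3 members was not tested.

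The rest of the pathway was read from lists of named genes, also chosen with earlier results of these data known. Their counts beside the shares over all genes are therefore descriptions, not tests. Besides the members, 10 genes of the REL, IkB and A20 machinery were measured. None passed at 1 h (1 higher and 1 lower at unadjusted p under 0.05, limma, against 18.5% of all genes). After washout, 2 were higher and 2 lower than control, where 26.2% of all genes passed. Rnf11, a component of the A20 complex, rose by 0.70 ± 0.051, and Cyld, a deubiquitinase that restrains NF-kB, fell by 0.99 ± 0.063 (log2, SE). Rel, which encodes the subunit c-Rel, read 8.62 ± 0.051 in washout arrays and 9.15 ± 0.060 in control arrays (SD, n = 3 each), and fell by 0.53. Tax1bp1, another component of the A20 complex, stood 0.15 higher, and was named after its value was seen. Its call was lost without control replicate 2 (adjusted p 0.0523, in a range of 0.00102 to 0.0523). Rela, which encodes the most widespread NF-kB activating subunit, differed by 0.11 (adjusted p 0.0778) after washout and by 0.02 (adjusted p 0.789) at 1 h, both against control. Against B/B 1 h, the washout difference was 0.80 for Rnf11, -0.95 for Cyld and -0.70 for Rel.

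At 1 h, where 2.89% of all genes passed, 0 of 18 receptors and adaptors upstream of IKK were higher and 1 was lower. That gene was Il1r1, the interleukin-1 receptor, at -0.35 ± 0.058 (log2, SE), a call that was lost without control replicate 2 or control replicate 3 (adjusted p up to 0.0564). After washout, 5 were higher and 5 lower than control, where 26.2% of all genes passed. Tlr3, a receptor for double-stranded RNA, rose 2.17-fold, while its adaptor gene Ticam1 was 1.85-fold lower. Traf6, a ubiquitin ligase of the Toll-like and interleukin-1 receptor pathways, rose by 0.37. The washout calls of Traf2 and Tnfrsf12a against control, named after their values were seen, were lost in 6 and 1 of 17 alternatives. Against B/B 1 h, 6 were higher and 4 lower, where 28.6% of all genes passed. Tlr3 stood there at 1.00, Il1r1 at 0.64 and Ticam1 at -0.65. The call of Irak1 there, named after its value was seen, was lost in 10 of 17 alternatives.

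In the list of IKK, TAK1 and ubiquitin genes, 0 of 17 passed at 1 h (1 higher and 4 lower at unadjusted p under 0.05, limma, against 18.5% of all genes). After washout, 10 were higher and 4 lower than control, where 26.2% of all genes passed. The median difference was 0.20, beside 0.001 over all genes. Not all of these calls were stable. Those of Tab3, Rnf31, Ube2n and Btrc, named after their values were seen, were lost in 9, 7, 4 and 3 of 17 alternatives. Ikbkg, the regulatory subunit of IKK, read 7.70 ± 0.034 in washout arrays and 7.07 ± 0.045 in control arrays (log2, SD, n = 3 each) and rose 1.55-fold. Ikbke, an IKK-related kinase, rose by 0.63, and Map3k14, the kinase NIK of the alternative branch, fell by 0.59. Against B/B 1 h, 10 were higher and 3 lower, where 28.6% of all genes passed. Ikbke stood there at 0.76, Ikbkg at 0.53 and Map3k14 at -0.72. Calls there of Rbck1, Map3k7, Tab2, Btrc and Birc2, named after their values were seen, were lost in 8, 5, 5, 2 and 1 of 17 alternatives.

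Of 35 target genes of NF-kB outside the member list, 9 were higher and 3 lower at 1 h, 8 higher and 9 lower after washout against control, and 3 higher and 14 lower after washout against B/B 1 h. Of all genes, 2.89%, 26.2% and 28.6% passed in these 3 comparisons. The chemokine genes Cxcl10 and Cxcl1 and the cytokine gene Lif had the highest differences at 1 h, 3.07, 2.95 and 0.77. The 3 lower genes at 1 h, named there after their values were seen, were Gadd45b, a stress-response gene, at -0.66, Tnfaip2 at -0.27, and Bcl2l1, an anti-apoptotic gene, at -0.26. The Tnfaip2 and Bcl2l1 calls were lost in 11 and 9 of 17 alternatives, with adjusted p up to 0.125 and 0.117. Of the 9 higher genes, Birc3 (0.24) and Ccl7 (0.22), named there after their values were seen, were also unstable. Their calls were lost in 12 and 8 of 17 alternatives, with limma adjusted p up to 0.114 and 0.0876. After washout against control, Ccl7, a monocyte chemokine gene, fell by 1.55, Junb, an AP-1 subunit gene, by 1.22 and Gadd45b by 1.06. Calls of Mmp9, Ptgs2 and Il6 in that comparison, named after their values were seen, were lost in 6, 4 and 1 of 17 alternatives. Between washout and B/B 1 h, Cxcl1 and Cxcl10 were 9.48-fold and 8.22-fold lower. The 3 higher genes there, named after their values were seen, were Tnfaip2 at 0.94, Bcl2l1 at 0.50 and Cflar, an inhibitor of death receptor signalling, at 0.35. Among the lower genes there, the call of Csf3, named after its value was seen, was lost in 3 of 17 alternatives. The list median was 0.10, 0.02 and -0.16 in the 3 comparisons. It includes weakly read genes, such as Il1b, Traf1 and Il6, with control means of 3.20, 3.87 and 3.95. These 3 genes stayed below the lowest array median of 4.6 in every group mean, and no detection call was used. Il6 counts among the higher genes after washout against control at 4.52.

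**Figure D4:**
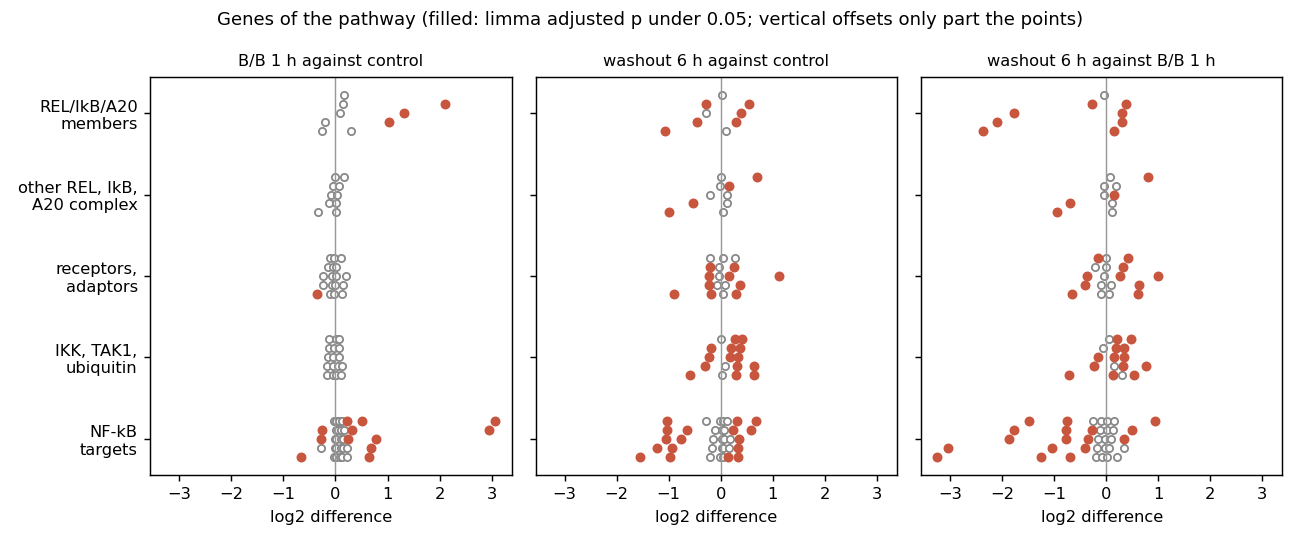
Log2 differences of the measured members (9 genes) and of 4 lists of pathway genes (10, 18, 17 and 35 genes) in the 3 comparisons, each point a gene, filled where limma's adjusted p is under 0.05. At 1 h the filled points are 3 members, 1 receptor gene and 12 target genes, and after washout the lists upstream of IKK have filled points on both sides of 0.

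For members with a difference of at least 1 (log2) between 2 group means, the genes nearest in pattern were taken by the root mean square distance over the 9 arrays, with each gene set relative to its control mean. Nearest to Nfkbia were Ier2, an immediate-early gene, at a distance of 0.15 (log2), Klf2, a Kruppel-like transcription factor gene, at 0.19 and Rhob, a small GTPase gene, at 0.20. Ier2 stood at -0.88 after washout and 1.08 at 1 h relative to control, close to the -1.07 and 1.03 of Nfkbia. Nearest to Nfkbiz were Nr4a2, an orphan nuclear receptor gene, at 0.19, and Jund and Ppp1r15a, both at 0.20. Tnfaip3 had no gene as near: Rcan1, a calcineurin regulator gene, lay at 0.31, Nfkbiz at 0.48 and Cxcl1 at 0.51. These distances describe 9 arrays in 3 groups and carry no test. The 1 h difference of Jund against control depended more on the processing than those of Nr4a2 and Ppp1r15a. It ranged from 0.84 to 1.20 over the alternatives, beside 0.98 to 1.07 and 1.03 to 1.07.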

How the data were processed

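Values of 9 arrays were used as the authors deposited them, as log2 probe set summaries. The submitters' processing notes name Partek 6.6, while the summary and normalization methods are not given in the sources used here. Over the 9 arrays, 25th percentiles of the deposited log2 values were 3.48 to 3.52 and 75th percentiles 6.92 to 7.04, from which normalization between arrays was inferred. RNA was extracted with Trizol and labelled as biotinylated cRNA, per the labels' protocols.

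Of 41345 probe sets, 23521 had 1 gene symbol, 1814 several and 16010 none. The first kind gave 22180 genes, each by its probe set of highest mean, with names updated through RefSeq's GRCm38.p6 gene table (0 changed). Comparisons were fitted with limma 3.58.1 (R 4.3.3) in 1 model of 3 group means (6 residual degrees of freedom, prior 3.38), with Benjamini-Hochberg adjustment per comparison. The code was tested on simulated data. Members and lists were chosen with earlier results of these data known. Genes named were all members, up to 3 called genes of each list per comparison with the largest difference, and the 3 nearest in pattern, leaving out predicted and small RNA genes. Alternatives were quantile normalization, centred medians, the lowest 30% of genes left out, probe sets averaged, a variance trend, array weights, 2 groups only, no moderation, leaving out each array, and a threshold of 0.01. The same alternatives were run on the pathway lists after the data were seen. Irak4, Traf3, Chuk, Ripk1 and Krt5 had no 1-symbol probe set among those used and were not analysed here. The number of arrays limits the precision, and the median standard error of a difference was 0.0636.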

Additional observations from a re-analysis of the deposited data

How the results depend on the processing

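Each of 27 member differences was recomputed under 17 alternatives. Of these 459 values, 419 kept their direction and their side of the threshold, 25 lost the call, 9 gained it and 6 changed sign. The differences of Nfkbia and Nfkbiz kept their calls in all 3 comparisons under all 17 alternatives, as did those of Tnfaip3 at 1 h against control and after washout against B/B 1 h. Sign changes were of differences that did not pass: Relb after washout against control, -0.0396 without control replicate 1 and -0.0071 without washout replicate 1 (-0.0396 to 0.0539 with 1 array left out), and Bcl3 between washout and B/B 1 h, 0.0039 with array medians centred, 0.024 without B/B 1 h replicate 2 or 3 and 0.0215 without washout replicate 2 (-0.1535 to 0.024 with 1 array left out). The count of 642 genes at 1 h was 1228 with a variance trend, 359 with only the 2 groups, 239 at adjusted p under 0.01 and 323 to 691 with 1 array left out. The member count of 8 between washout and B/B 1 h was 5 without moderation, 4 at adjusted p under 0.01 and 5 to 8 with 1 array left out, and it was 3 to 4 at 1 h and 5 to 7 after washout against control. The cause of these shifts was not tested. At adjusted p under 0.01 the count of target genes at 1 h was 7 in place of 12, that of receptors and adaptors after washout against control 5 in place of 10, and that of IKK genes between washout and B/B 1 h 8 in place of 13. The single receptor gene at 1 h was 0 to 3 over the alternatives, and the other REL, IkB and A20 genes at 1 h were 1 with a variance trend in place of 0. Fibroblast markers called at 1 h were 0, and 1 to 3 in 3 alternatives. Leukocyte markers called after washout against control were 3, and 1 in 5 alternatives. No paired analysis was possible because the labels carry no replicate numbers, those used here being names given in deposit order. With 3 arrays a group, smaller differences could not be told from the spread, and no detection calls were used.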
